A study of Mus musculus with 18 samples.

Results

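The genes described here are 9 genes of the complement system, chosen by name as components of the classical and alternative pathways and as receptors for complement fragments, out of 55487 genes counted in the mouse adipose libraries. They were C1qa, C1qb and C1qc, which encode the chains of C1q, C2 and C4b of the classical pathway, C3, the alternative pathway gene Cfb, and the receptor genes C3ar1 and C5ar1. All 9 were in the count tables under their own Ensembl identifiers. In subcutaneous white adipose tissue (sWAT) all 9 passed the filter on low counts, and in brown adipose tissue (BAT) 8 did, Cfb being the exception.

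RNA was sequenced from sWAT of 4 Ctrl and 4 Csn8AKO mice at 12 weeks of age, and from BAT of 5 Ctrl and 5 Csn8AKO mice at 4 weeks, 18 libraries in all. CSN8 is a subunit of the COP9 signalosome, a complex that removes NEDD8 from cullin ubiquitin ligases. Csn8AKO mice were homozygous for a floxed Csn8 allele and carried Cre recombinase under the adiponectin promoter, which removes exons 4 to 6 in adipocytes, whereas other cells of the tissue keep the gene. Ctrl mice were littermates with the same floxed alleles and without Cre, labelled WT in the sample records, and all the mice were male, on chow and fasted for 4 h. The measure is the number of reads per gene, given here as CPM, which is the count relative to the library total, scaled by trimmed mean of M-values (TMM) factors within each tissue. A gene was called when its adjusted p in edgeR's quasi-likelihood test, with Benjamini-Hochberg adjustment over all genes tested, was under 0.05.

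Complement is a chain of proteases and binding proteins that tags surfaces for uptake and calls in immune cells. C1q binds antibody complexes and dying cells, its partner proteases C1r and C1s then cut C4 and C2 to build an enzyme that cuts C3, and the alternative pathway builds another such enzyme from C3 and factor B with the help of factor D. The liver makes most complement in plasma, tissue macrophages are a main source of C1q, and adipocytes are the best known source of factor D, which is also called adipsin. The small fragments cut from C3 and C5 act on receptors of myeloid cells, which C3ar1 and C5ar1 encode.

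Library totals ran from 15835721 to 23109603 counts in sWAT and from 26658593 to 66719937 in BAT. Reads on ribosomal RNA genes took 1.80% to 19.8% of counts in sWAT Ctrl and 3.96% to 47.8% in sWAT Csn8AKO, where replicates 3 and 4 stood apart with 31.8% and 47.8%. In BAT this share was 0.863% to 15.1%. Cops8, the symbol of Csn8 in the annotation, had a log2 fold change of -0.12 in sWAT (adjusted p = 0.623) and -0.30 in BAT (adjusted p = 0.0211), and these counts cover the whole gene, so that transcripts without exons 4 to 6 still count. Ucp1, the uncoupling protein of brown adipocytes, ran from 1568 to 5243 CPM in BAT and from 0 to 6.89 CPM in sWAT. Adipoq, which encodes the adipocyte hormone adiponectin, was at 491 CPM or more in every library. In bulk tissue, fewer cells of a type and less RNA per cell cannot be told apart.

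In BAT, 8 of the 8 tested complement genes were higher in Csn8AKO, with log2 fold changes of 1.47 to 2.19, and the Ctrl and Csn8AKO libraries did not overlap for any of these 8. Of all 22345 genes tested in BAT, 16.0% were called higher, and 10.1% had Csn8AKO libraries all above the Ctrl libraries. In sWAT, 3 of the 9 genes were called, all of them higher (C1qb, C3ar1 and C5ar1), where 2.30% of 18843 genes tested were called higher. The same 3 were those whose groups did not overlap in sWAT, where 5.80% of genes lay wholly above Ctrl. The median log2 fold change over the genes tested was 0.83 for the complement genes and 0.032 for all genes in sWAT, and 1.64 and 0.006 in BAT. With a log2 fold change of at least 1 required as well, C3ar1 was the 1 gene left in sWAT and all 8 stayed in BAT, against 1.41% and 6.85% of all genes that were higher in this way. The BAT calls held in each of the 10 fits that left out 1 library.

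The sWAT calls varied with the libraries and the scaling used. With 1 library left out, C3ar1 kept its call in 8 of 8 fits, C5ar1 in 7 and C1qb in 2. Without Csn8AKO replicates 3 and 4, the libraries with most ribosomal RNA reads, 0 of the 9 genes were called by edgeR, with adjusted p = 0.0507 for C3ar1, 0.0987 for C5ar1 and 0.156 for C1qb, and 4 of the 9 had an unadjusted p under 0.05. On all libraries 7 of the 9 had such a p, where 20.4% of all genes did. Scaling by library size alone also left 0 calls by edgeR in sWAT and 5 genes with an unadjusted p under 0.05, and C3ar1 then had an adjusted p of 0.0678, C5ar1 0.329 and C1qb 0.225. Without Ctrl replicate 2 there was 1 call and without Csn8AKO replicate 2 there were 6, and DESeq2 and limma voom called 6 each on all libraries. The share of calls over all genes that were higher was 43.4% in sWAT and 24.4% with library size alone, and 50.3% and 66.7% in BAT.

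**Figure D1:**
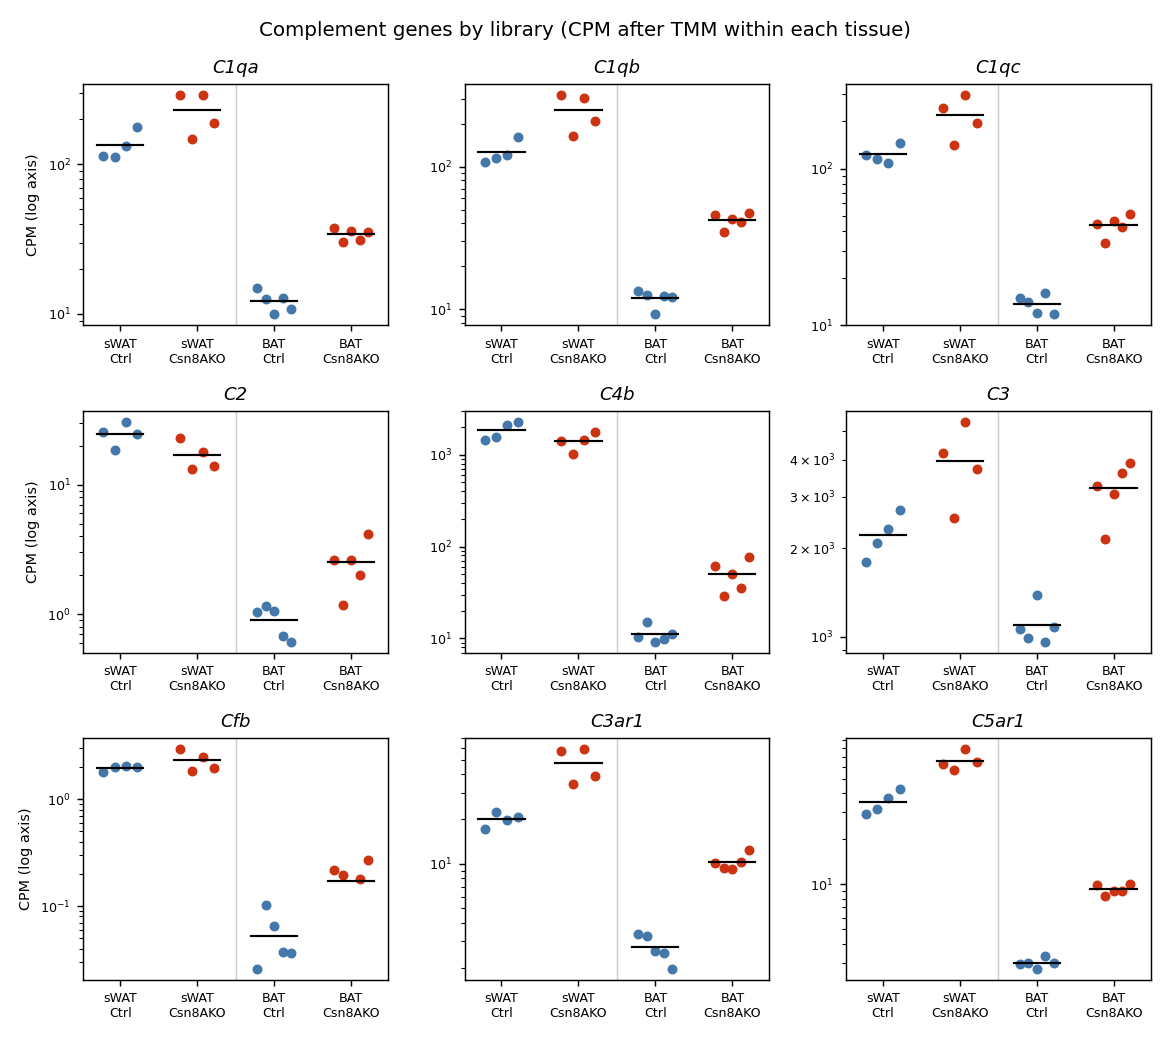
CPM of the 9 complement genes in each library on log axes (1 panel a gene, blue points Ctrl, red points Csn8AKO, black bars group means). In BAT every red point lies above every blue point for all genes but Cfb, whose 1 Csn8AKO library with 0 counts has no point on the log axis, whereas C2 and C4b in sWAT have overlapping groups with the lower mean in Csn8AKO.

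C1q was the most uniform set. Its 3 genes lie side by side on chromosome 4 (GRCm38), C1qb at 136880129 to 136886187, C1qc at 136889804 to 136893065 and C1qa at 136895917 to 136898803, all on the minus strand, and none shares exon bases with another annotated gene. The chains assemble into 1 protein, so that their relative levels are of interest beside their absolute ones. In BAT Ctrl, C1qa was at 14.8, 12.5, 9.92, 12.8 and 10.8 CPM, and in BAT Csn8AKO at 37.4, 30.4, 35.7, 31.2 and 35.5 CPM. Every Csn8AKO library lay well above the highest Ctrl library, and the log2 fold change was 1.49 (SE 0.11, adjusted p = 7.46e-07).

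C1qb in BAT was at 13.5, 12.5, 9.20, 12.4 and 12.2 CPM in Ctrl and 46.1, 35.0, 43.2, 40.6 and 47.3 CPM in Csn8AKO. This was a log2 fold change of 1.83 (SE 0.11, adjusted p = 1.41e-07), the smallest adjusted p of the set. C1qc was at 14.9, 14.0, 11.9, 16.2 and 11.7 CPM in BAT Ctrl and 44.45, 33.6, 46.2, 42.4 and 51.3 CPM in BAT Csn8AKO, and rose by 1.66 on the log2 scale (SE 0.12, adjusted p = 6.14e-07). The groups were far apart for all 3 chains in BAT.

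In sWAT Ctrl the chains were 8.38 to 10.3 times as abundant as in BAT Ctrl. Within sWAT their levels were more variable in Csn8AKO than in Ctrl. C1qb was at 108, 114, 122 and 161 CPM in Ctrl and at 320, 164, 301 and 209.8 CPM in Csn8AKO. All 4 Csn8AKO libraries were above all Ctrl libraries, but replicate 2 stood just above the highest of them. The log2 fold change was 0.98 (SE 0.23, adjusted p = 0.0369), and it kept its call only in the fits without Csn8AKO replicate 2 or 4, the adjusted p reaching 0.125 in the other 6. C1qa was at 114, 113, 132 and 178 CPM in Ctrl and 293, 149, 293 and 191 CPM in Csn8AKO, so the groups overlapped, and its log2 fold change of 0.79 (SE 0.25, adjusted p = 0.1) did not pass. C1qc was at 122, 116, 109 and 147 CPM in Ctrl and 242, 142, 296 and 197 CPM in Csn8AKO. Csn8AKO replicate 2 lay within the Ctrl range, and the log2 fold change was 0.83 (SE 0.22, adjusted p = 0.0561).

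Within each library the balance of the chains moved slightly toward C1qb. The log2 ratio of C1qb to C1qa was -0.15 to 0.02 in sWAT Ctrl and 0.04 to 0.14 in sWAT Csn8AKO, and -0.14 to 0.17 in BAT Ctrl and 0.20 to 0.42 in BAT Csn8AKO. The groups did not overlap in either tissue, with mean differences of 0.19 and 0.34. The ratio of C1qc to C1qa overlapped in both, with mean differences of 0.03 and 0.17.

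C2 and C4b, which encode the substrates of the C1 proteases, showed the largest contrast between the tissues. C4b lies on chromosome 17 at 34728380 to 34743882. In BAT Ctrl it was at 10.5, 15.2, 9.21, 9.72 and 11.0 CPM, and in Csn8AKO at 61.2, 29.2, 50.5, 35.4 and 77.4 CPM. The Csn8AKO libraries spread widely but all lay above Ctrl, and the log2 fold change of 2.19 (SE 0.26, adjusted p = 1.48e-04) was the largest of the complement genes in BAT. In sWAT, C4b was at 1453, 1546, 2104 and 2285 CPM in Ctrl and 1413, 1026, 1464 and 1777 CPM in Csn8AKO. The groups overlapped there, with a log2 fold change of -0.38 (SE 0.24, adjusted p = 0.432).

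C2 in BAT was at 1.03, 1.15, 1.05, 0.683 and 0.613 CPM in Ctrl and 2.60, 1.18, 2.61, 2.01 and 4.18 CPM in Csn8AKO. Csn8AKO replicate 2 was close to the highest Ctrl library and the others stood clear of it. Its log2 fold change was 1.47 (SE 0.30, adjusted p = 0.00171), resting on 30 to 154 counts per Csn8AKO library and 34 to 68 per Ctrl library. In sWAT, C2 was at 25.3, 18.6, 30.6 and 24.5 CPM in Ctrl and 23.0, 13.3, 18.0 and 13.8 CPM in Csn8AKO, an overlap, with a log2 fold change of -0.54 (SE 0.21, adjusted p = 0.183).

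C4b has a near-identical neighbour, C4a, from which it was told apart only by reads that align to one place. The log2 ratio of C4b to C4a was 4.43 to 4.65 in sWAT Ctrl and 4.36 to 4.66 in sWAT Csn8AKO, the same range. In BAT it was 1.76 to 2.51 in Ctrl and 2.89 to 3.79 in Csn8AKO, with no overlap and a mean difference of 1.24. C4a itself rose in BAT with a log2 fold change of 0.89 (SE 0.17, adjusted p = 0.00128) and had -0.36 in sWAT (adjusted p = 0.312). How reads of the pair divide between them is uncertain.

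Cfb, which encodes factor B, and C2 also have counts that understate their levels. The genes are neighbours on chromosome 17, Cfb at 34856374 to 34862518 and C2 at 34862604 to 34898265, and the predicted gene Gm20547 (34856412 to 34882042) runs across both on the same strand. Of the 2825 exon bases of Cfb, 2246 are also exon bases of Gm20547, which leaves 579 (20.5%) that belong to Cfb alone. For C2, 1656 of 3872 exon bases are shared with Gm20547 and 161 with Zbtb12 on the other strand, which leaves 2055 (53.1%). The authors counted reads that fell on 1 gene without ambiguity. Gm20547 had 0 counts in all 18 libraries, which says nothing of its level, since all its 3902 exon bases are shared with Cfb or C2. The other 7 complement genes had all their exon bases to themselves.

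**Figure D2:**
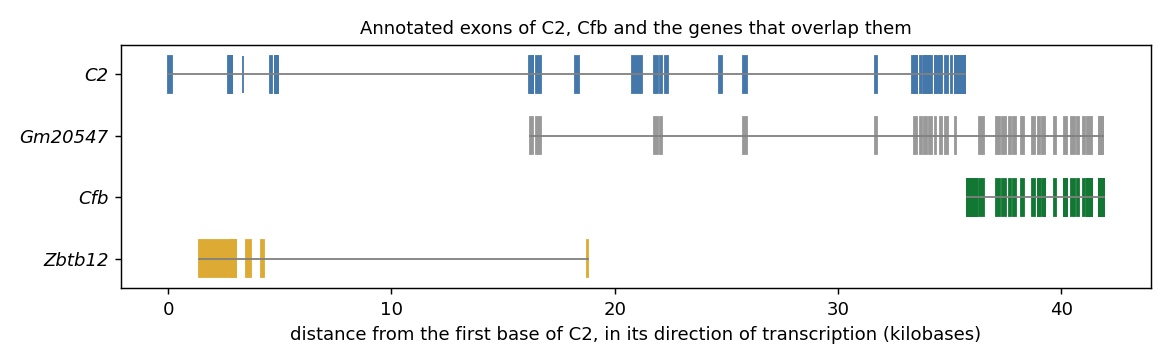
Exons (blocks) of C2, Cfb, Gm20547 and Zbtb12 along the distance from the first base of C2, in kilobases. The exons of Gm20547 cover most of those of Cfb, of which 579 of 2825 bases remain in Cfb alone, and part of those of C2.

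With this loss, Cfb was at 1.81, 2.03, 2.07 and 2.02 CPM in sWAT Ctrl and at 2.96, 1.86, 2.48 and 1.94 CPM in sWAT Csn8AKO. The groups overlapped, and the log2 fold change of 0.22 (SE 0.26, adjusted p = 0.688) did not pass. In BAT the counts were 1, 6, 4, 2 and 2 in Ctrl and 13, 5, 0, 13 and 8 in Csn8AKO, too few for the filter. A count of 0 allows up to 3 counts, which is 0.103 CPM in that library, and such floors cover counting error only. When all 4 groups shared 1 fit, Cfb was kept by the filter through its sWAT counts, and its spread was estimated over both tissues. Its BAT change there was 1.60 on the log2 scale (SE 0.49, adjusted p = 0.0222 in edgeR), which is no test on BAT alone. On the BAT libraries, edgeR without the filter on low counts gave 1.62 (adjusted p = 0.133) and DESeq2 gave 1.68 (adjusted p = 0.0724).

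C3, the protein on which all pathways converge, had by far the highest counts of the 9 genes in BAT. It lies on chromosome 17 at 57203970 to 57228136. In BAT Ctrl it was at 1065, 988, 1387, 962 and 1081 CPM, and in Csn8AKO at 3270, 2158, 3060, 3613 and 3908 CPM. Ctrl replicate 3 stood apart from the other Ctrl libraries but was still below every Csn8AKO library, and the log2 fold change was 1.55 (SE 0.16, adjusted p = 1.06e-05). In sWAT it was at 1801, 2082, 2328 and 2691 CPM in Ctrl and 4231, 2535, 5390 and 3732 CPM in Csn8AKO. Csn8AKO replicate 2 lay within the Ctrl range, and the log2 fold change of 0.84 (SE 0.27, adjusted p = 0.109) did not pass. Of the 8 fits without 1 library, C3 was called in 1, that without Csn8AKO replicate 2 (1.00, adjusted p = 0.0201). In the others it did not pass, with adjusted p up to 0.3.

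The anaphylatoxin receptors were the members with a call in both tissues, together with C1qb. C3ar1, on chromosome 6 at 122847138 to 122856161, was at 17.1, 22.3, 19.6 and 20.7 CPM in sWAT Ctrl and 57.7, 34.3, 59.1 and 38.7 CPM in sWAT Csn8AKO. The groups were well apart, with a log2 fold change of 1.25 (SE 0.20, adjusted p = 0.00751), and the call held in all 8 fits that left out 1 library. In BAT, C3ar1 was at 3.39, 3.25, 2.60, 2.51 and 1.97 CPM in Ctrl and 10.1, 9.34, 9.14, 10.3 and 12.3 CPM in Csn8AKO. This was a log2 fold change of 1.90 (SE 0.16, adjusted p = 2.07e-06).

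C5ar1, on chromosome 7 at 16246743 to 16259540, was at 29.2, 31.6, 37.2 and 42.9 CPM in sWAT Ctrl and 62.1, 56.9, 78.7 and 64.5 CPM in sWAT Csn8AKO. Its log2 fold change there was 0.90 (SE 0.16, adjusted p = 0.0123), and without Ctrl replicate 2 the adjusted p was 0.0506. In BAT it was at 2.95, 3.00, 2.74, 3.36 and 2.98 CPM in Ctrl and 9.90, 8.32, 8.97, 8.99 and 9.96 CPM in Csn8AKO. The narrow groups gave a log2 fold change of 1.62 (SE 0.12, adjusted p = 5.51e-07). C5ar1 had the smallest SD relative to its mean in BAT Csn8AKO, 0.697 on a mean of 9.23 CPM (n = 5).

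**Figure D3:**
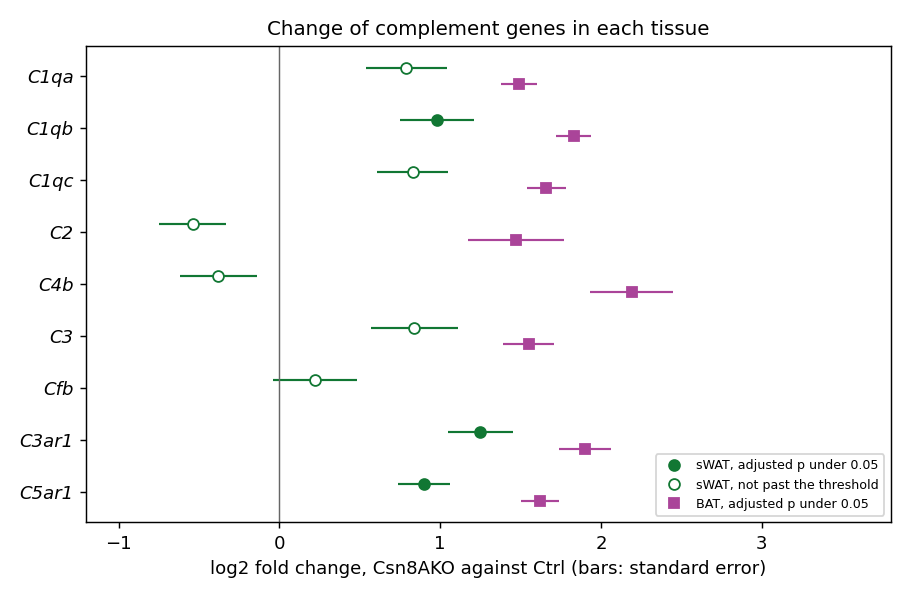
Log2 fold change of Csn8AKO against Ctrl for each complement gene (green circles sWAT, purple squares BAT, bars standard errors, filled symbols adjusted p under 0.05). All 8 BAT symbols are filled and lie between 1.47 and 2.19, whereas in sWAT C3ar1, C1qb and C5ar1 are filled and C2 and C4b lie below 0.

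Promoters are shown for C1qb, C3ar1 and C5ar1, the 3 genes called in both tissues. Each line holds the 250 bases before the start site in RefSeq (GRCm38.p6), in the direction of transcription, from chr4:136886201-136886450, chr6:122856158-122856407 and chr7:16259339-16259588, all on the minus strand. The genes as counted start further upstream for C3ar1, at 122856161, and for C5ar1, at 16259540, which is inside these windows. Most of the C5ar1 window thus lies within the counted gene. Capitals mark the letters GGAAGT on the other strand, a short core that ETS factors such as the myeloid factor PU.1 bind, printed here as its reverse complement.
C1qb: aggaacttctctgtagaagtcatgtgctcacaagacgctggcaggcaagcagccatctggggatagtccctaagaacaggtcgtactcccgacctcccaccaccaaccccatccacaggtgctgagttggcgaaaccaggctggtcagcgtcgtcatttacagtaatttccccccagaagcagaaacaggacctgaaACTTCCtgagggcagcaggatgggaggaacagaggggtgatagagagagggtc
C3ar1: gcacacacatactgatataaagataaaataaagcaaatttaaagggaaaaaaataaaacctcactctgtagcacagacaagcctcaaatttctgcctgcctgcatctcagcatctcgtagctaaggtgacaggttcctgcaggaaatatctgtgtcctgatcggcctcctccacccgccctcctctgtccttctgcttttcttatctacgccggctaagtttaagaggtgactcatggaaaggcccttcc
C5ar1: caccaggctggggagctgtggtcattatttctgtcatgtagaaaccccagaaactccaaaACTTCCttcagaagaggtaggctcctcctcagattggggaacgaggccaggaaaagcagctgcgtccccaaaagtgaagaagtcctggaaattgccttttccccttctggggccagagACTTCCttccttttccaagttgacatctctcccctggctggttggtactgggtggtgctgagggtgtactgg

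Windows of this kind were in the table for 5 of the 9 genes, these 3 with C1qc and C3. GGAAGT, on either strand, was found in C1qb with its first base at -53, in C5ar1 at -190 and -72, and in C1qc at -195, where -1 is the last base before the start, and 19.7% of 32851 promoter windows of the same length hold it. The longer GAGGAAGT, which contains it, was at the same place in C1qc and in 2.44% of windows. C5ar1 also held the interferon regulatory factor letters GAAANNGAA at -66 on the other strand (7.13% of windows), overlapping its ETS match by no bases, and C3 held the C/EBP letters TTNNGNAAT at -45 (10.2%). The NF-kB letters GGANNNNCC were in all 5 windows and in 42.3% of all windows, and the STAT letters TTCNNNGAA were in none of the 5 and in 7.02% of all. The matches in C5ar1 lie within the gene as counted, after the start of its annotation there. In C1qc the counted gene also starts inside the window, and its ETS match lies before that start. These are matches of letters, not sites shown to be bound.

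The size of the change differed between the tissues for 3 of the 9 genes, by an interaction test on the 18 libraries together, and BAT had the higher change for each, as for 1.61% of 22509 genes tested. Tissue and age cannot be told apart in this comparison. For C4b the log2 change in BAT exceeded that in sWAT by 2.55 (SE 0.36, adjusted p = 5.67e-04), and for C2 by 1.99 (SE 0.39, adjusted p = 0.00866), and both calls held in all 18 fits without 1 library. For C5ar1 the difference was 0.71 (SE 0.18, adjusted p = 0.0356). That call was lost in 13 of 18 such fits, with adjusted p up to 0.087, and held without sWAT Ctrl replicate 1 or 2, sWAT Csn8AKO replicate 3, BAT Ctrl replicate 4 or BAT Csn8AKO replicate 2.

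For the other 6 genes the difference was also above 0 but did not pass. It was 0.83 for C1qb (SE 0.26, adjusted p = 0.0981), 0.82 for C1qc (SE 0.25, adjusted p = 0.0983) and 0.68 for C1qa (SE 0.27, adjusted p = 0.216). C3ar1 had 0.63 (SE 0.26, adjusted p = 0.228), C3 0.69 (SE 0.31, adjusted p = 0.281) and Cfb 1.38 (SE 0.61, adjusted p = 0.285). Cfb entered this test through its sWAT counts, since it was too low in BAT for the filter there. With library size alone as the scale, the median difference over all genes was 0.21 rather than near 0, and 92.7% of all calls were higher in BAT against 68.0%.

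Levels can be compared between genes only per length, for which CPM over all 18 libraries was divided by the exon length in kilobases. In sWAT Ctrl the order was C3 with 420 CPM per kilobase (mean, SD 75.9, n = 4), C4b with 314, C1qa with 125, C1qb with 112, C1qc with 61.8, C5ar1 with 13.3, C2 with 6.18, C3ar1 with 4.49 and Cfb with 0.680. The libraries of neighbours in this order overlapped for C3 and C4b, for C1qa and C1qb, and for C2 and C3ar1, and not for the others. In sWAT Csn8AKO the order was C3 with 746, C4b with 241, C1qb with 221, C1qa with 215, C1qc with 109.6, C5ar1 with 24.6, C3ar1 with 10.6, C2 with 4.24 and Cfb with 0.789. There C4b and the C1q chains overlapped each with the next, and C3 stood above C4b.

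In BAT Ctrl the order was C3 with 221 CPM per kilobase (SD 34.2, n = 5), C1qa with 12.1, C1qb with 11.4, C1qc with 7.38, C4b with 2.02, C5ar1 with 1.21, C3ar1 with 0.660, C2 with 0.243 and Cfb with 0.0194. Only C1qa and C1qb overlapped among neighbours. BAT Csn8AKO kept this order except that C1qb, with 39.8, came before C1qa, with 33.4, and C3 reached 635. If reads of Cfb came only from bases it does not share, its mean per kilobase of those bases was 3.32 in sWAT Ctrl and 3.85 in sWAT Csn8AKO, and that of C2 was 11.7 and 7.99.

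The tissues differed most in C4b. On the scale common to all 18 libraries the sWAT mean in Ctrl was 155 times the BAT mean for C4b, 35.0 times for Cfb and 25.5 times for C2, but 1.90 times for C3. The C1q genes were 8.38 to 10.3 times as high, C5ar1 11.0 times and C3ar1 6.80 times. Among Csn8AKO mice the ratio was smaller for every one of the 9 genes, down to 26.5 for C4b and 1.18 for C3. These ratios have no test here, since the tissues were taken at different ages.

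**Figure D4:**
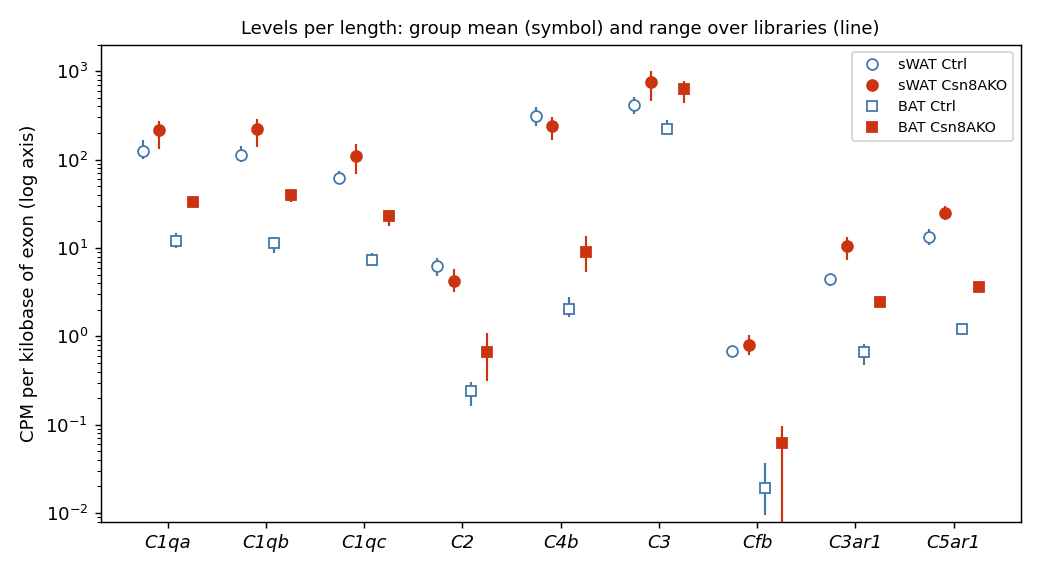
Mean CPM per kilobase of exon in each group (open symbols Ctrl, filled Csn8AKO, circles sWAT, squares BAT) with lines for the range over libraries, on a log axis. C3 lies near the top in all 4 groups, C4b falls from 314 in sWAT Ctrl to 2.02 in BAT Ctrl, and the line for Cfb in BAT Csn8AKO reaches the bottom of the axis because 1 library has 0 counts.

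Other genes of the system were followed with lists of 43 genes. Of these, 34 were tested in sWAT and 32 in BAT when the paralogs of C1q and C4 are left out, and 7 were higher and 1 lower in sWAT and 18 higher and 4 lower in BAT. Over all genes, 3.00% were called lower in sWAT and 15.8% in BAT. Among 13 genes that start the classical and lectin pathways, 9 were tested in each tissue, with 1 called in sWAT and 8 in BAT, all higher. Masp1, a protease of the lectin pathway, was the one called in both. It rose from 0.815 to 1.98 CPM in sWAT Ctrl to 6.25 to 13.2 CPM in Csn8AKO, a log2 fold change of 2.82 (SE 0.33, adjusted p = 0.00254), and had 2.94 in BAT (SE 0.41, adjusted p = 1.36e-04). In BAT the C1 protease genes rose as well, C1ra by 1.43 (adjusted p = 3.43e-05) and C1s1 by 1.19 (adjusted p = 6.44e-05), and so did the ficolin gene Fcna by 1.42 (adjusted p = 2.76e-04), all on the log2 scale.

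The alternative pathway genes Cfd and Cfp went opposite ways in sWAT. Cfd, which encodes adipsin, was at 7391 to 9965 CPM in sWAT Ctrl and 1539 to 4227 CPM in Csn8AKO, and fell by 1.46 on the log2 scale (SE 0.34, adjusted p = 0.035), a call that held in 3 of 8 fits without 1 library. In BAT it had -0.65 (SE 0.32, adjusted p = 0.157) with overlapping groups. Cfp encodes properdin, which stabilises the alternative pathway enzyme and is made by myeloid cells. It had a log2 fold change of 0.89 in sWAT (SE 0.18, adjusted p = 0.0212, held in 4 of 8 such fits) and 1.62 in BAT (SE 0.13, adjusted p = 9.93e-07).

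In the terminal pathway, which builds the pore, C6 was called higher in sWAT, by 1.35 on the log2 scale (adjusted p = 0.0212, held in 4 of 8 such fits), of 4 genes tested. The 2 tested in BAT were C7, higher by 1.48 (adjusted p = 1.30e-04), and C8g, with -1.57 (adjusted p = 7.65e-06). C8g encodes the lipocalin chain of C8. Of 11 regulators tested in sWAT, 0 were called by edgeR, 5 had an unadjusted p under 0.05 and DESeq2 and limma voom called 2 each, whereas in BAT 5 of 12 were higher and 3 lower. Serping1, the inhibitor of C1, had 1.25 (adjusted p = 2.91e-06) and Csmd1, a membrane protein with complement control domains, had 1.44 (adjusted p = 5.72e-05). The membrane inhibitor Cd59b had -0.87 (adjusted p = 0.00151).

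Among 8 other receptors, 4 rose in sWAT and 3 in BAT. Itgb2, the shared integrin chain of complement receptors 3 and 4, had log2 fold changes of 1.25 in sWAT (adjusted p = 0.0199, held in 3 of 8 such fits) and 2.27 in BAT (adjusted p = 3.46e-07). Its partner chains were called in both tissues too, Itgam with 1.21 and 1.68 and Itgax with 1.72 and 2.37. C5ar2, the second C5a receptor, was higher in sWAT by 1.33 (SE 0.19, adjusted p = 0.00531) and had 0.37 in BAT (adjusted p = 0.365). The interaction for C5ar2, at -0.98 (SE 0.36, adjusted p = 0.177), did not pass.

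Markers of macrophages were higher in Csn8AKO as a sum, though not each of them was. On the scale common to all 18 libraries, the summed level of 10 macrophage markers was 927 to 1334 CPM in sWAT Ctrl and 1504 to 2734 in Csn8AKO, with 5 of 10 called higher, and 121 to 163 in BAT Ctrl and 340.4 to 467.5 in Csn8AKO, with 8 of 10 called. Adgre1, which encodes the macrophage antigen F4/80, had a log2 fold change of 1.31 in sWAT (adjusted p = 0.0018) and 1.63 in BAT (adjusted p = 6.29e-06). Cd163 had 0.15 in sWAT (adjusted p = 0.816) and 0.22 in BAT (adjusted p = 0.237), both with overlapping groups. Mertk had -0.08 in sWAT (adjusted p = 0.858) and 0.55 in BAT (adjusted p = 0.00216). The part of the macrophage markers in the complement results was not tested. None of the 10 was at 0 in every library.

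Relative to the summed macrophage markers, most of the complement genes were nearly level. The sum gives most weight to markers with high counts. In BAT the group mean of the sum rose by 1.51 on the log2 scale, whereas the median over the 10 markers was 1.02. Lyz2 had 2.81 there, the largest of the 10, and the median over the complement genes was 1.64. The log2 ratio differed between Csn8AKO and Ctrl by -0.14 for C1qa, 0.05 for C1qb, -0.11 for C1qc, -0.10 for C3 and 0.00 for C5ar1 in sWAT, with overlapping groups. In BAT these differences were -0.03, 0.30, 0.13, 0.00 and 0.09, and the groups were apart for C1qb. C3ar1 had 0.32 and 0.39, with overlap in both tissues. In sWAT, C2 was at -5.80 to -5.28 in Ctrl and -7.15 to -6.92 in Csn8AKO, a mean difference of -1.45, and C4b was at 0.56 to 0.74 in Ctrl and -0.98 to -0.04 in Csn8AKO, a mean difference of -1.28. These groups did not overlap, whereas in BAT C2 had -0.13 and C4b 0.60, both with overlap. In CPM alone, C2 and C4b overlapped between genotypes in sWAT, with log2 fold changes of -0.54 and -0.38 that did not pass. The macrophage sum, by which they were divided, rose there by 0.91 on the log2 scale.

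**Figure D5:**
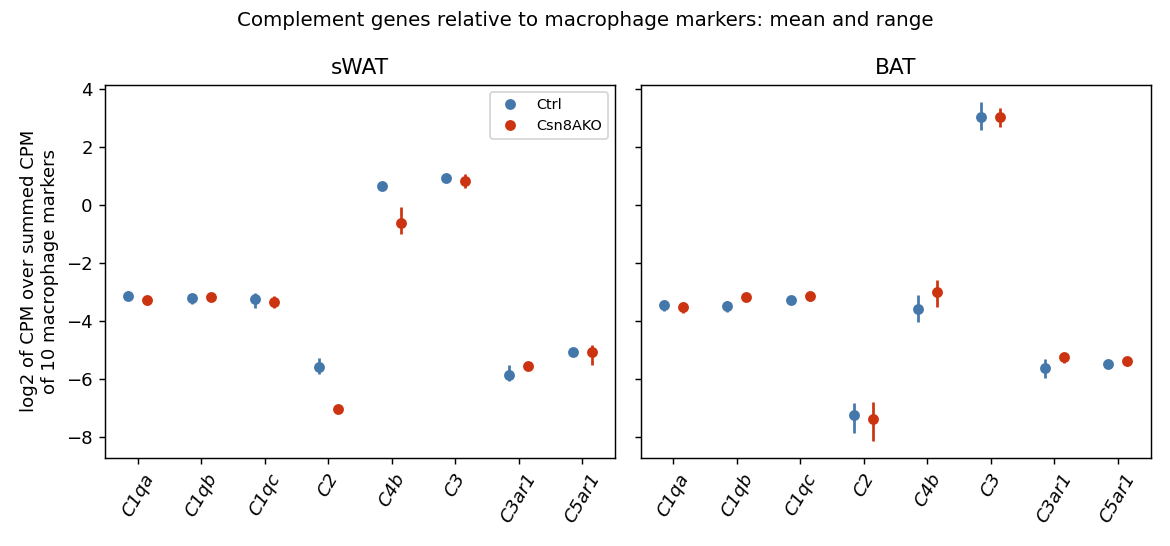
Log2 ratio of each complement gene to the summed CPM of 10 macrophage markers (left sWAT, right BAT, points group means, lines ranges over libraries, blue Ctrl, red Csn8AKO). In sWAT the ratios of C2 and C4b lie 1.45 and 1.28 lower in Csn8AKO without overlap, whereas those of the C1q genes, C3 and C5ar1 differ by 0.14 or less. The CPM of C2 and C4b themselves overlapped between genotypes in sWAT, and the macrophage sum was higher in Csn8AKO.

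Other cell types were followed by the same means. The 6 fibroblast and progenitor markers summed to 490 to 822 CPM in BAT Ctrl and 1143 to 2248 in BAT Csn8AKO, with 6 of 6 called higher, and to 3655 to 4641 and 3769 to 7587 CPM in sWAT, with 1 of 6 called. The 7 adipocyte markers summed to 8842 to 13940 CPM in sWAT Ctrl and 3851 to 8886 in Csn8AKO, with 2 of 7 called lower, and to 7810 to 9150 and 8222 to 10090 CPM in BAT, with 1 called higher and 1 lower, and the sums overlapped in both tissues. The 6 brown adipocyte markers summed to 67.6 to 145 CPM in sWAT Ctrl and 9.63 to 25.4 in sWAT Csn8AKO, lower without overlap. Of the 5 tested there, 2 were called lower, Cidea and Cox8b, and 1, Elovl3, had a log2 fold change above 0 (2.27, adjusted p = 0.185). In BAT they summed to 4311 to 7254 CPM in Ctrl and 4072 to 8904 in Csn8AKO, an overlap, with 1 called higher and 1 lower. Hepatocyte markers, of the organ that makes most plasma C3, summed to 0.798 CPM or less in every BAT library. In sWAT they summed to 24.8 to 165 CPM in Ctrl and 1.97 to 77.0 in Csn8AKO, with 0 of 5 called by edgeR, DESeq2 or limma voom and 0 with an unadjusted p under 0.05.

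The 7 neutrophil markers, of which 2 were tested in each tissue and 1, Csf3r, was called higher in both, summed to 4.11 to 6.72 CPM in sWAT Ctrl and 9.92 to 24.6 in Csn8AKO, and to 1.45 to 2.33 and 2.73 to 4.21 CPM in BAT. The 5 T cell markers summed to 1.69 to 2.75 CPM in BAT Ctrl and 4.88 to 7.88 in BAT Csn8AKO, with 2 of 5 called higher. None of these sums overlapped between genotypes. Csf3r made up much of the neutrophil sums, and most of the other neutrophil markers were too low to be tested. On the scale within each tissue, its means were 4.42 CPM in sWAT Ctrl and 10.0 in Csn8AKO, and 1.06 and 2.30 CPM in BAT. In sWAT, B and T cell markers were high in Ctrl replicate 1 (102.9 and 143.5 CPM) and in Csn8AKO replicate 2 (271 and 196 CPM), the library whose removal raised the sWAT calls to 6. Muscle markers were at 95.9 CPM in BAT Csn8AKO replicate 1 and 174 CPM in replicate 5, against 1.45 CPM or less in the other BAT libraries. The part of these cell types in the results was not tested, and the BAT calls of the 8 complement genes held without replicate 1 and without replicate 5.

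Across the 18 libraries, with each tissue centred on its mean, the C1q genes followed each other with Pearson correlations of 0.978 to 0.990. C3, C3ar1 and C5ar1 had 0.931 to 0.975 with the C1q genes, whereas C4b had 0.773 to 0.796 and C2 0.622 to 0.650. C4b and C2 had 0.882 with each other, and Cfb had at most 0.580 with any of the others. Both genotypes enter these values, and the libraries share depth and scaling, so that they describe the pattern and have no p.

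Among 12238 other genes with sufficient counts, those most like the mean of the C1q genes were Fcgr3, an immunoglobulin receptor (0.986), Cfp (0.982) and Anpep, an aminopeptidase (0.982). For C3 they were Anpep (0.977), the receptor tyrosine kinase gene Axl (0.974) and the fibronectin gene Fn1 (0.969). For C3ar1 they were Myo1f (0.977), Fcer1g (0.973) and Pirb (0.973), and for C5ar1 Plxnb2 (0.990), the macrophage marker Cd68 (0.989) and Slc11a1 (0.981). C4b was most like the transferrin gene Trf (0.957), Evc2 (0.949) and Igfbp4 (0.946), and C2 most like Ttc39c (0.942), Igfbp4 (0.911) and Ccdc80 (0.901). Cfb, with the fewest counts, reached 0.791 with Slc2a10.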

How the data were processed

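Total RNA of sWAT and BAT was extracted with TRIzol, depleted of ribosomal RNA and sequenced as paired reads of 150 bases. The authors aligned the reads with STAR 2.7.9a to Ensembl release 101 (GRCm38) and deposited, for each library, the count of uniquely aligned, unambiguous reads per gene (featureCounts), without normalization. Whether strand was used is not given in the sources used here. The CPM, FPKM and TPM that the authors deposited beside the counts were not used. Symbols came from the reference tables for 55141 of 55487 identifiers.

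Counts were tested with edgeR 4.0.16 in R 4.3.3 (TMM factors, filterByExpr with minimums of 10 for the count and 15 for the total, robust quasi-likelihood fits), genotypes within each tissue and their interaction with tissue over 18 libraries, with Benjamini-Hochberg adjustment over all genes tested, and the fits were tested on simulated data. DESeq2 1.42.0 and limma 3.58.1 served as alternatives. The DESeq2 1.36.0 of the authors was not run. Each library comes from 1 mouse, and the closest pair of libraries in a group differed by more than sampling noise. Of the members, all 9 were named with every value, of other complement genes at most 4 called per list and tissue, by smallest adjusted p, and for likeness the 3 genes of highest correlation. A gene that this rule takes is not reported here. The members, lists and tests were chosen with earlier results of these data known. Motifs were sought in the 250 bases before each start only. Totals from 15835721 to 66719937 counts limit precision most for Cfb and C2 in BAT.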

Additional observations from a re-analysis of the deposited data

Results flagged for a closer look

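C3 in BAT Ctrl was flagged because its highest library, replicate 3 with 1387 CPM, stood apart from the other 4, which lay between 962 and 1081 CPM. Of 36 groups of libraries looked at in this way 1 was flagged, and chance flags about 1 in 20. Without this library C3 was still called in BAT. C2, C4b and C5ar1 were flagged because their change differed between the tissues in edgeR's interaction test, by 1.99, 2.55 and 0.71 on the log2 scale with BAT above sWAT and adjusted p of 0.00866, 5.67e-04 and 0.0356. For C5ar1 this difference lost its call in 13 of 18 fits without 1 library.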

How the results depend on the processing

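No complement gene changed direction under any of the alternatives run in either tissue or in their difference, and all 8 genes tested in BAT were called under each of them. In sWAT, where 3 of the 9 complement genes and 1000 genes in all were called, library size alone gave 0 and 434, DESeq2 6 and 1822, limma voom 6 and 2155, and all 4 groups in one fit 6 and 2463. Adding a log2 fold change of at least 1 gave 1 and 624 in sWAT, and 2460 genes in BAT where 7121 were called without it. Without the 2 libraries of high ribosomal share, chosen after seeing the data, sWAT had 0 and 382. Leaving out 1 library gave 1 to 6 complement genes and 326 to 1477 genes in sWAT. For the difference between the tissues, with 3 complement genes and 532 genes called, DESeq2 gave 5 and 1103, limma voom 903 genes and the fit without those 2 libraries 818 genes. With a term for the replicate number (replicate block) 2 complement genes and 299 genes were called in sWAT, 8 and 6776 in BAT, and 2 and 297 in the difference. The labels share replicate numbers between genotypes, and the main fits used no pairing. Same-numbered libraries did not deviate together, with correlations of -0.387 to 0.223 in sWAT and -0.0975 to 0.101 in BAT. Such correlations cannot tell whether the numbers mark pairs of mice. The cause of these changes was not tested. Depth limits Cfb in BAT to 0 to 13 counts a library.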

Other observations

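Genes that share the C1q domain without being part of complement were read beside the C1q genes, in 1 list with C4a, the neighbour of C4b. Of 5 such genes of the C1qtnf family and C4a, 5 were tested in sWAT with 0 called by edgeR, 1 with an unadjusted p under 0.05, 0 called by DESeq2 and 1 by limma voom, and 6 in BAT with 4 called higher. C1qtnf6 had a log2 fold change of 1.11 in BAT (SE 0.18, adjusted p = 2.86e-04), C1qtnf1 0.81 (SE 0.11, adjusted p = 6.72e-05) and C1qtnf7 1.32 (SE 0.25, adjusted p = 0.00103). The other gene of the list called in BAT was C4a. Over the tested genes of the list, C4a included, the medians were 0.33 in sWAT and 0.85 in BAT, beside 0.032 and 0.006 for all genes.

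Markers of lipid-associated macrophages, a state found around dying adipocytes, summed to 31.7 to 67.03 CPM in sWAT Ctrl and 163 to 282.5 CPM in Csn8AKO, and to 5.60 to 8.48 and 51.0 to 107.7 CPM in BAT, with 5 of 5 called higher in each tissue. Mast cell markers summed to 1.14 to 2.17 CPM in BAT Ctrl and 8.82 to 17.7 CPM in BAT Csn8AKO, with 3 of 3 tested called higher. In sWAT they summed to 25.9 to 43.9 CPM in Ctrl and 38.9 to 145.2 CPM in Csn8AKO, an overlap. There 0 of 4 were called by edgeR, 3 had an unadjusted p under 0.05, and DESeq2 called 3 and limma voom 2.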
